A study of Rattus norvegicus with 12 samples.

Results

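The retina of young rats was compared between postnatal day 17 (P17) and P14, in animals subjected to oxygen-induced retinopathy (OIR) and in normoxic controls (CTL). Of the 12 small RNA libraries of the series, 4 were used, chosen by their labels alone: retina P17 OIR, P14 OIR, P17 CTL and P14 CTL, each 1 library made from a pool of 5 tissues. All animals were Sprague Dawley rats, with no transgene or drug. OIR pups were kept in cycling oxygen until P14 and were then returned to room air, so that P17 falls 3 days after the return, while CTL pups breathed room air throughout. The P17 to P14 ratio in CTL is thus an age difference, and in OIR age and the return to room air cannot be told apart. The 2 P7 retina libraries are quoted for context, and they also entered an alternative fit of the test across both arms.

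MicroRNAs (miRNAs) are short RNAs that guide silencing complexes to messenger RNAs, mainly through the seed, bases 2 to 8 of the mature strand. In the rodent retina the eyes open, photoreceptor outer segments elongate and synapses and vessels are remodelled over this stage, and in OIR the oxygen cycling stops retinal vessel growth, which is followed by abnormal vessels after return to room air. The families followed here are known as regulators of extracellular matrix (miR-29), developmental timing (let-7), endothelial cells (miR-126), smooth muscle and mural cells (miR-143 and miR-145), glial and inflammatory responses (miR-21) and low oxygen (miR-210).

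The miR-29 family is shown because its 3 members were higher at P17 in both arms, together with the annotated miRNAs that lie on the opposite strand of 2 of them. Mature sequences are those of RefSeq on build GRCr8, and 62 of the 69 abundant miRNAs matched it. Capitals mark the seed in the miR-29 members, and in the opposite-strand miRNAs the bases that face it.
miR-29a-3p: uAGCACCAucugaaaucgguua
miR-29b-3p: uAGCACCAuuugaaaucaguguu
miR-29c-3p: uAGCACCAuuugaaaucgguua
miR-3587: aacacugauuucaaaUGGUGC
miR-3556b: accgauuucaaaUGGUGCUa
The locus of miR-29a-3p is chr4:60617968-60617989 on the minus strand, and miR-29b-3p has one copy beside it at chr4:60618342-60618364 and another at chr13:109098882-109098904 on the plus strand, close to miR-29c-3p at chr13:109099412-109099433. miR-3587 is complementary over all 21 of its bases to the chromosome 4 copy of miR-29b-3p, and miR-3556b over all 20 of its bases to miR-29c-3p.

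The let-7 members and the family of miR-148a, miR-148b and miR-152 are shown because each shares 1 seed and was higher at P17 in the OIR arm only, and miR-21-5p and miR-184 because each stood apart in OIR. Capitals again mark the seed.
let-7a-5p: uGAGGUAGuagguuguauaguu
let-7b-5p: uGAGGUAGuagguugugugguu
let-7c-5p: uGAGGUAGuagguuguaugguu
let-7i-5p: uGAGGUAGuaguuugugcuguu
miR-148a-3p: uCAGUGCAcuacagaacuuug
miR-148b-3p: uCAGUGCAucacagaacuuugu
miR-152-3p: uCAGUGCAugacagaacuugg
miR-21-5p: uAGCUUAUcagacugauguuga
miR-184: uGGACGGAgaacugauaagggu

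Levels are unique molecular identifiers (UMIs, 1 per captured RNA molecule) per 1000000 miRNA UMIs of the library, written RPM. The libraries held 6994293 to 13370397 miRNA UMIs and listed 574 to 657 miRNAs each, and 557 of 684 miRNAs were listed in all 4. P14 OIR was the shallowest library, with 6994293 miRNA UMIs and 8.34% of its reads discarded for a defective UMI, against 3.44% to 6.40% in the other 3. The 5 forms of the photoreceptor cluster of miR-182, miR-183 and miR-96 were summed. They reached 347903 RPM in P17 OIR and 374469 RPM in P14 OIR, against 336038 RPM in P17 CTL and 344953 RPM in P14 CTL. No choroid level is set beside these sums, so they cannot check the retinal label. In pooled tissue, fewer cells of a type and less RNA per cell cannot be told apart. With 1 library per group no test of either ratio was possible, so each has an exact 95% interval for counting error only, which holds none of the variation between animals.

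Ratios were read among the 69 miRNAs that averaged at least 1000 RPM over the 4 libraries, and a miRNA was counted as past the limit when its ratio was above 1.2 or below 1/1.2 and the counting interval excluded 1. In OIR, 30 miRNAs (43.5%) were higher and 7 (10.1%) lower at P17 than at P14. In CTL, 13 (18.8%) were higher and 5 (7.25%) lower. The median log2 ratio of the 69 was 0.17 in OIR and 0.04 in CTL. These splits depend on scaling: with the 5 most abundant miRNAs left out of the total, the OIR median moved by -0.21 and the CTL median by -0.08, and among the 100 miRNAs then above 1000 RPM 19 were higher and 31 lower in OIR and 15 higher and 13 lower in CTL. With TMM scaling the CTL split was 12 higher and 9 lower.

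Across the 69 miRNAs the log2 ratios of the arms had a Pearson correlation of 0.47 and a Spearman correlation of 0.44, and 47 had the same sign. These are descriptions over miRNAs that share 4 libraries and are not independent. Both arms were past the limit in the same direction for 10 miRNAs, 8 higher (11.6%) and 2 lower (2.9%). OIR and not CTL was past it for 19 miRNAs, 14 higher (20.3%) and 5 lower (7.25%), where the OIR ratio also had to differ from the CTL ratio by more than 1.2-fold with a counting interval excluding 1. A further 7 miRNAs passed in OIR alone but lay within 1.2-fold of their CTL ratio. The reverse held for 4, 3 more were past the limit in CTL and not OIR, miR-184 went in opposite directions and 25 passed in neither arm. The difference between arms could not be tested, since 4 libraries leave nothing to estimate its spread.

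**Figure D1:**
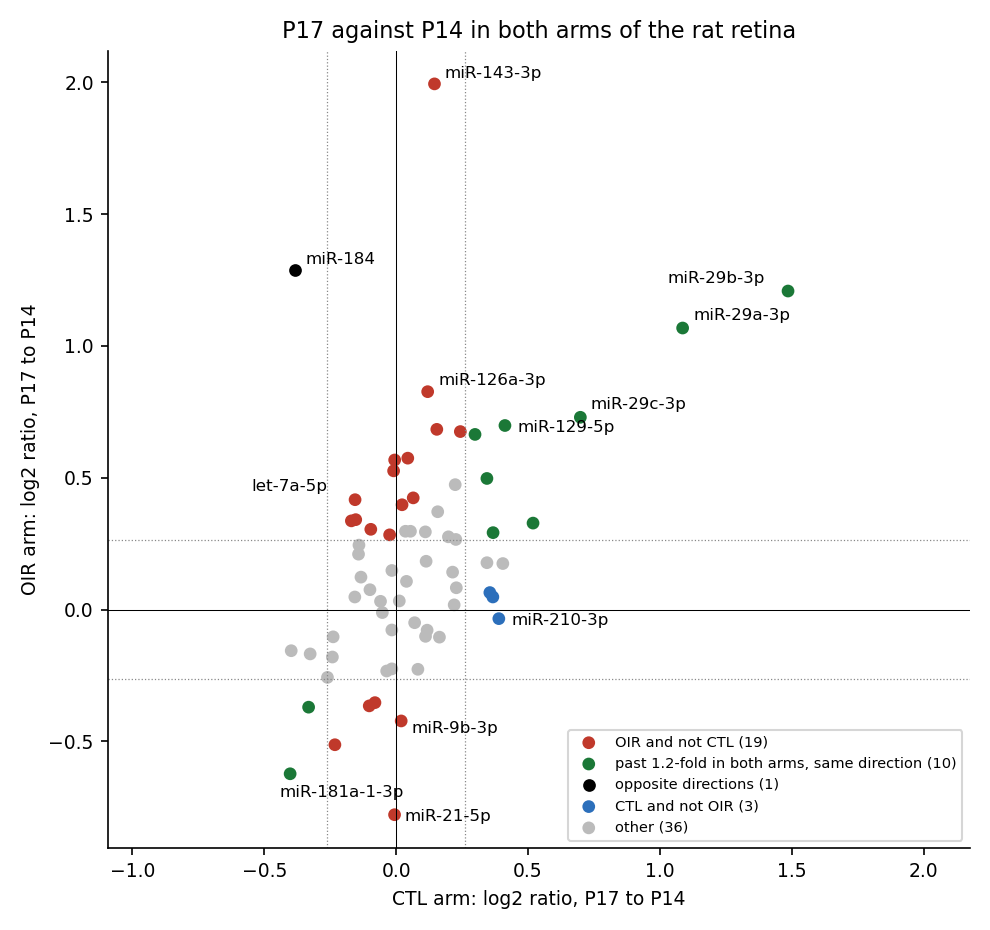
Each point is 1 of the 69 miRNAs of at least 1000 RPM, with the log2 ratio of P17 to P14 in the OIR arm on the vertical axis and in the CTL arm on the horizontal axis, and dotted lines at 1.2-fold. The miR-29 members lie far out in both arms, miR-143-3p (log2 1.99 in OIR) lies far out in OIR only, and miR-184 is the 1 point past the limit in opposite directions.

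The miRNAs that both arms shared were led by the miR-29 family, known for its pairing with messenger RNAs of collagens and other matrix proteins. miR-29a-3p stood at 4539 RPM in P17 OIR and 2165 RPM in P14 OIR, and at 4484 RPM in P17 CTL and 2112 RPM in P14 CTL. Its ratio was 2.10 (95% counting interval 2.06 to 2.13) in OIR and 2.12 (2.09 to 2.15) in CTL. Within each age the arms lay close together, and both P17 libraries were above both P14 libraries.

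miR-29b-3p, the member with the lowest level, had 1498 RPM in P17 OIR and 649 RPM in P14 OIR, against 1512 RPM in P17 CTL and 540 RPM in P14 CTL. These gave ratios of 2.31 (2.24 to 2.39) in OIR and 2.80 (2.72 to 2.88) in CTL. The member with the highest level, miR-29c-3p, had 22686 RPM in P17 OIR and 13685 RPM in P14 OIR, and 19577 RPM in P17 CTL and 12062 RPM in P14 CTL, with ratios of 1.66 (1.65 to 1.67) and 1.62 (1.61 to 1.63) in OIR and CTL. For all 3 members both P17 libraries lay above both P14 libraries. The family is shown because it was higher at P17 in both arms, which makes this order likely. The share of all miRNAs with this order is not given here. At P7 the levels were lower still, at 457, 131 and 5019 RPM in OIR and 901, 196 and 3400 RPM in CTL for miR-29a-3p, miR-29b-3p and miR-29c-3p.

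**Figure D2:**
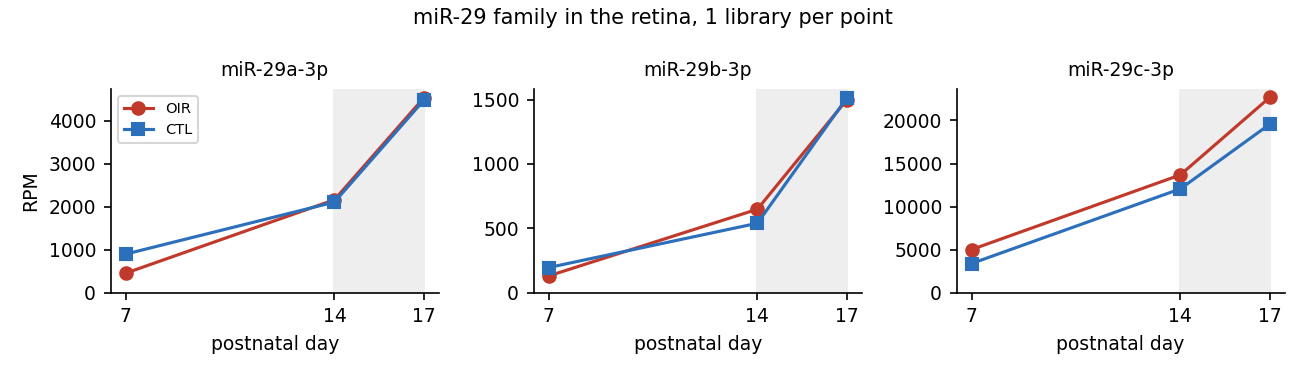
RPM (vertical axis, from 0) of the 3 miR-29 members at P7, P14 and P17 (horizontal axis) in OIR (circles) and CTL (squares), 1 library per point, with P14 to P17 shaded. Both arms are highest at P17 for each member, for example 4539 RPM in OIR and 4484 RPM in CTL for miR-29a-3p.

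The opposite strands of the same hairpins and of the same loci were measured too. From the other arm of the hairpin, miR-29c-5p had ratios of 1.39 in OIR and 1.33 in CTL and miR-29b-5p 1.49 and 2.03 in OIR and CTL. miR-3587, opposite miR-29b-3p, had 221 RPM in P17 OIR and 119 RPM in P14 OIR, against 250 RPM in P17 CTL and 112 RPM in P14 CTL. miR-3556b, opposite miR-29c-3p, had 688 RPM in P17 OIR and 415 RPM in P14 OIR, against 656 RPM in P17 CTL and 358 RPM in P14 CTL. Both were past the limit in both arms, as were the miRNAs they face, with ratios of 1.86 and 2.23 (miR-3587) and 1.66 and 1.83 (miR-3556b) in OIR and CTL. Opposite miR-29a-3p, miR-3556a had only 3.60 RPM in P17 OIR and 2.92 RPM in P17 CTL. Whether the counting kept the strands apart is not given in the sources used here, so the levels of these miRNAs and of the miR-29 members are uncertain to that extent.

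The other 5 miRNAs higher in both arms had smaller ratios. miR-129-5p, a neuronal miRNA, had 1473 RPM in P17 OIR and 908 RPM in P14 OIR, against 1675 RPM in P17 CTL and 1258 RPM in P14 CTL, a ratio of 1.62 (1.58 to 1.67) in OIR and 1.33 (1.30 to 1.36) in CTL. miR-211-5p, which shares its seed UCCCUUU with miR-204-5p and is abundant in pigment epithelium, had 3368 RPM in P17 OIR and 2386 RPM in P14 OIR, against 4369 RPM in P17 CTL and 3442 RPM in P14 CTL, with ratios of 1.41 and 1.27 in OIR and CTL. For both, the CTL library was above the OIR library at each age. miR-190a-5p (1.26 and 1.43), miR-27b-3p (1.22 and 1.29) and miR-126a-5p (1.58 and 1.23) complete the group, with the OIR ratio given first. The last 3 passed the limit in both arms no longer when the 5 most abundant miRNAs were left out of the total.

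The 2 miRNAs lower in both arms came from the miR-181a hairpins, which are expressed in retinal neurons. miR-181a-5p had 2025 RPM in P17 OIR and 2617 RPM in P14 OIR, against 2694 RPM in P17 CTL and 3390 RPM in P14 CTL, with ratios of 0.774 (0.759 to 0.789) in OIR and 0.795 (0.783 to 0.806) in CTL. miR-181a-1-3p, the other strand of the hairpin on chromosome 13, had ratios of 0.650 in OIR and 0.757 in CTL. Below 1000 RPM, miR-92a-3p, of the proliferation-linked miR-17 clusters, was also lower in both arms. It stood at 228 RPM in P17 OIR and 462 RPM in P14 OIR, against 285 RPM in P17 CTL and 470 RPM in P14 CTL. Of the 10 miR-17 cluster members, 3 were lower and 1 higher in OIR and 3 lower and none higher in CTL, with median log2 ratios of -0.21 and -0.12. The count lower in OIR was 1 with TMM scaling and 7 without the 5 most abundant miRNAs in the total. Over the 363 miRNAs of at least 10 RPM, which serve as the background for lists, 19.3% were lower in OIR and 11% in CTL, and the medians were 0.08 and 0.04.

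The age difference that both arms share could be tested with the arms as repeats, which leaves 1 residual degree of freedom. Of 640 miRNAs tested with edgeR's quasi-likelihood test, 0 (0%) passed an adjusted p of 0.05, and at an unadjusted p of 0.05 39 were higher (6.09%) and 15 lower (2.34%). The lowest adjusted p was 0.12, for miR-29b-3p (log2 1.37, SE 0.16), miR-29a-3p (log2 1.10, SE 0.16), miR-3587 (log2 1.05, SE 0.15) and miR-6328 (log2 -1.50, SE 0.20). miR-29c-3p had a log2 difference of 0.74 (SE 0.16, edgeR adjusted p 0.42). DESeq2 called 11 miRNAs higher and 3 lower, the 3 miR-29 members among them, and edgeR on reads in place of UMIs called 3 higher and 1 lower.

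Turning to what OIR alone showed, the widest gap between the arms was that of miR-143-3p, which is enriched in smooth muscle and mural cells of vessels. It stood at 5557 RPM in P17 OIR and 1396 RPM in P14 OIR, against 3077 RPM in P17 CTL and 2782 RPM in P14 CTL. The ratio was 3.98 (3.90 to 4.07) in OIR and 1.11 (1.09 to 1.12) in CTL, and the OIR ratio was 3.60 times the CTL ratio (3.51 to 3.69). P14 OIR was the lowest and P17 OIR the highest of the 4 libraries.

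miR-145-5p, made from the same cluster, had 170 RPM in P17 OIR and 46.3 RPM in P14 OIR, against 88.0 RPM in P17 CTL and 68.7 RPM in P14 CTL, with ratios of 3.67 (3.26 to 4.15) in OIR and 1.28 (1.17 to 1.40) in CTL. The star strands miR-143-5p (3.36 in OIR and 1.46 in CTL) and miR-145-3p (2.51 in OIR and 1.22 in CTL) went the same way at levels under 60 RPM. Of the 9 miRNAs on the mesenchymal and mural list, 7 averaged at least 10 RPM, and all 7 were higher in OIR (background 32% of 363) while 2 were higher in CTL (background 19.3%). Their median log2 ratio was 1.33 in OIR and 0.15 in CTL. These 7 summed to 7868 RPM in P17 OIR and 2814 RPM in P14 OIR, against 4589 RPM in P17 CTL and 4230 RPM in P14 CTL. They include both strands of miR-143, miR-145 and miR-199a, so they are not independent. The members under 10 RPM had OIR ratios below 1, at 0.626 (0.303 to 1.29) for miR-214-3p and 0.368 (0.152 to 0.842) for miR-10b-5p. At P7, miR-143-3p was at 1632 RPM in OIR and 10636 RPM in CTL.

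miR-126a-3p, made from an intron of the endothelial gene Egfl7, had 14003 RPM in P17 OIR and 7897 RPM in P14 OIR, against 10154 RPM in P17 CTL and 9346 RPM in P14 CTL. Its ratio was 1.77 (1.76 to 1.79) in OIR and 1.09 (1.08 to 1.10) in CTL. Relative to CTL, OIR was 0.845-fold at P14 and 1.38-fold at P17, so the arms swapped order. Its partner strand miR-126a-5p stood at 5383 RPM in P17 OIR and 3397 RPM in P14 OIR, against 3692 RPM in P17 CTL and 3000 RPM in P14 CTL. Of the 7 endothelial list members, 4 were higher and 2 lower in OIR and 2 higher and 1 lower in CTL. Over the 363 miRNAs, 32% were higher and 19.3% lower in OIR and 19.3% higher and 11% lower in CTL, and the counts of 2 lower in OIR and of either direction in CTL lie near these shares. Those lower in OIR were miR-221-3p, at 40.1 RPM in P17 OIR and 48.2 RPM in P14 OIR, and miR-222-3p, at 7.49 RPM and 13.4 RPM in the same libraries. With TMM scaling 5 of the list were higher and 1 lower in OIR. Without the 5 most abundant miRNAs in the total, 3 were higher and 2 lower in OIR. The OIR median log2 ratio was then 0.12, against 0.32 with the full total. Both strands of miR-126a are on the list, so its members are not independent.

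miR-184, a miRNA best known from corneal and lens epithelium, went in opposite directions in the arms. It had 2247 RPM in P17 OIR and 921 RPM in P14 OIR, against 1203 RPM in P17 CTL and 1567 RPM in P14 CTL. The ratio was 2.44 (2.37 to 2.51) in OIR and 0.768 (0.752 to 0.784) in CTL. Of the other surface epithelium miRNAs, miR-205 stood at 19.8 RPM in P17 OIR and 17.2 RPM in P14 OIR, against 19.1 RPM in P17 CTL and 31.5 RPM in P14 CTL, and miR-200c-3p was under 10 RPM in all 4. Of the 5 members of at least 10 RPM, 1 was higher in OIR (miR-184, background 32% of 363). In CTL 2 were lower (miR-184 and miR-205, background 11%). These 5 summed to 2471 RPM in P17 OIR and 1152 RPM in P14 OIR, against 1423 RPM in P17 CTL and 1783 RPM in P14 CTL. Most of each sum was miR-184.

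**Figure D3:**
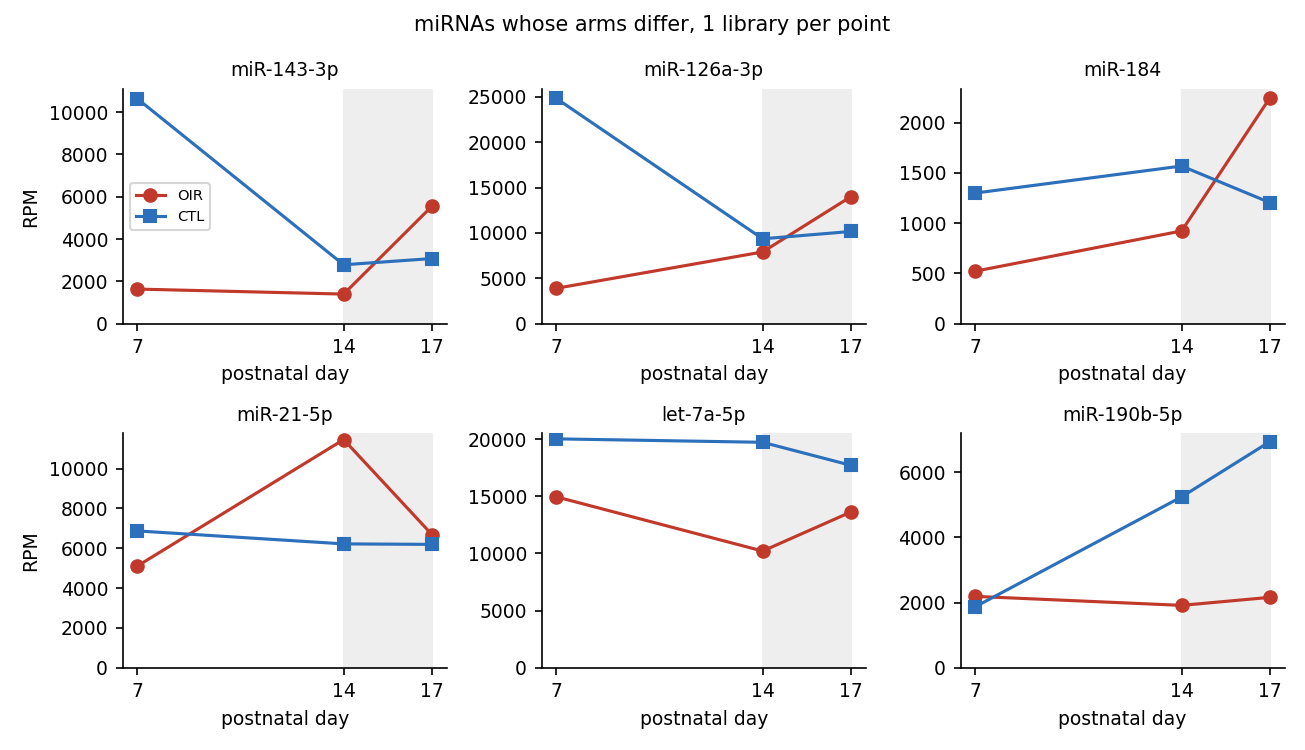
RPM (vertical axes, from 0) of 6 miRNAs at P7, P14 and P17 (horizontal axes) in OIR (circles) and CTL (squares), 1 library per point, with P14 to P17 shaded. For miR-143-3p, miR-126a-3p and miR-184 the OIR library is below CTL at P14 and above it at P17, miR-21-5p has its OIR peak at P14 (11458 RPM), and miR-190b-5p in OIR is at 2161 RPM at P17 while CTL reaches 6936 RPM.

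The let-7 family, which accumulates as tissues mature and silences growth genes, was past the limit in OIR only. Of the 9 members, 6 were higher in OIR and none in CTL, let-7g-5p within 1.2-fold of its CTL ratio (background 32% and 19.3% of 363), with median log2 ratios of 0.30 in OIR and -0.14 in CTL. No member kept its place past the limit when the 5 most abundant miRNAs were left out of the total, where the medians were 0.09 in OIR and -0.22 in CTL. let-7a-5p had 13632 RPM in P17 OIR and 10212 RPM in P14 OIR, against 17706 RPM in P17 CTL and 19723 RPM in P14 CTL, with ratios of 1.33 (1.32 to 1.35) in OIR and 0.898 (0.893 to 0.903) in CTL.

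let-7i-5p (1.32 in OIR and 1.02 in CTL), let-7c-5p (1.27 and 0.899 in OIR and CTL) and let-7b-5p (1.26 and 0.889 in OIR and CTL) followed. Every member had an OIR ratio above its CTL ratio, and none reached the CTL level. The summed level of the family was 82926 RPM in P17 OIR and 71175 RPM in P14 OIR, against 98145 RPM in P17 CTL and 104680 RPM in P14 CTL. let-7a-5p in OIR was 0.770-fold of CTL at P17 and 0.518-fold at P14. Members differ by few bases, so reads may be shared among them in the counting, and miR-3596a to miR-3596d lie opposite 4 of them.

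**Figure D4:**
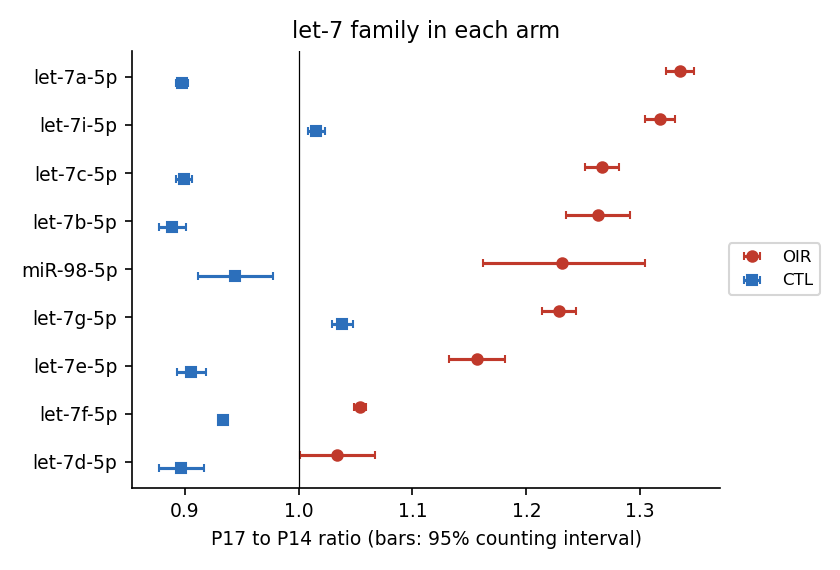
P17 to P14 ratio (horizontal axis, linear, not from 0) of the 9 let-7 family members, with OIR as circles above CTL as squares, and bars for the 95% counting interval. The OIR point of every member lies to the right of its CTL point, from 1.03 (let-7d-5p) to 1.33 (let-7a-5p).

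The seed CAGUGCA was shared by miR-148a-3p, miR-148b-3p and miR-152-3p, which in human cells are known to target the DNA methyltransferase DNMT1. All 3 were higher past the limit in OIR and none in CTL, against 43.5% and 18.8% of the 69. The family is shown because of this pattern, which fixes the count, so it is a description only. All members of the seeds CCCUGAG (miR-125a-5p and miR-125b-5p) and UCAAGUA (miR-26a-5p and miR-26b-5p) were also higher past the limit in OIR and none in CTL. miR-148a-3p stood at 3451 RPM in P17 OIR and 2161 RPM in P14 OIR, against 3027 RPM in P17 CTL and 2557 RPM in P14 CTL. miR-152-3p had 1411 RPM in P17 OIR and 879 RPM in P14 OIR, against 938 RPM in P17 CTL and 843 RPM in P14 CTL. The ratios of the 3 were 1.60, 1.34 and 1.61 in OIR and 1.18, 1.05 and 1.11 in CTL. Under the scaling without the 5 most abundant miRNAs, miR-148b-3p no longer passed.

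Among the rest of the 14, miR-124-3p, the classic neuronal miRNA, had 4634 RPM in P17 OIR and 3218 RPM in P14 OIR, against 5464 RPM in P17 CTL and 5500 RPM in P14 CTL. miR-26a-5p had 18483 RPM in P17 OIR and 12414 RPM in P14 OIR, against 19052 RPM in P17 CTL and 18476 RPM in P14 CTL. The CTL libraries of both ages were nearly level for these, and P14 OIR lay well below. miR-135a-5p, miR-125a-5p and miR-204-5p had ratios of 1.48, 1.23 and 1.22 in OIR and 0.996, 0.936 and 0.983 in CTL.

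P14 OIR was the lowest of the 4 libraries for 13 of the 14 miRNAs higher in OIR and not CTL, and the highest for all 5 lower ones. OIR was below CTL for 13 of the 14 at P14 and for 9 at P17, and the gap was smaller at P17 for 12. The way these miRNAs were chosen, by an OIR ratio past the limit and apart from the CTL ratio, largely fixes such counts, which are given as a description only. Over the 69, the OIR to CTL ratio was past 1.2-fold for 28 at P17 and 42 at P14, with a median absolute log2 ratio of 0.21 at P17 and 0.33 at P14. These counts use no interval and the same 4 libraries, so the P14 OIR library, the shallowest, enters each of them. The part of its depth and defective UMIs in these values was not tested.

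The 5 miRNAs lower in OIR and not CTL were led by miR-21-5p, which is induced in reactive glia and inflammation. It had 6683 RPM in P17 OIR and 11458 RPM in P14 OIR, against 6196 RPM in P17 CTL and 6222 RPM in P14 CTL, a ratio of 0.583 (0.577 to 0.589) in OIR and 0.996 (0.986 to 1.01) in CTL. P14 OIR stood apart, and the 3 other libraries lay close together. miR-21-3p, from the same hairpin, stood at 22.9 RPM in P17 OIR and 24.3 RPM in P14 OIR, against 13.8 RPM in P17 CTL and 9.92 RPM in P14 CTL (ratio 0.940, 0.769 to 1.15, in OIR). The reactive glia list also held miR-146b-5p, which was higher in OIR (ratio 1.68), so that 1 of 3 was higher and 1 lower in OIR and 1 higher in CTL. In the same order, the shares over the 363 miRNAs were 32%, 19.3% and 19.3%.

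miR-9a-5p, a miRNA of neurons and their precursors and one of the most abundant here, had 126461 RPM in P17 OIR and 161496 RPM in P14 OIR, against 145887 RPM in P17 CTL and 154231 RPM in P14 CTL. Its ratio was 0.783 (0.781 to 0.785) in OIR and 0.946 (0.944 to 0.948) in CTL. miR-9b-3p, with ratios of 0.746 in OIR and 1.01 in CTL, lies on the opposite strand of miR-9a-5p over 18 bases, so it is uncertain. miR-340-5p (0.701 in OIR and 0.851 in CTL) and miR-15a-5p (0.776 in OIR and 0.932 in CTL) complete the set. With TMM scaling only miR-21-5p and miR-9b-3p of the 5 stayed in this class, whose split was then 22 higher and 2 lower. miR-9a-5p was then inside the limit in OIR (ratio 0.838). miR-340-5p (0.751) and miR-15a-5p (0.831) stayed past it in OIR but left the class, with CTL ratios of 0.826 and 0.904. Without the 5 most abundant miRNAs in the total the split of the class was 9 higher and 16 lower.

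CTL and not OIR was past the limit for miR-30b-5p (1.05 in OIR and 1.28 in CTL), miR-301a-3p and miR-210-3p. miR-210-3p, which the hypoxia-inducible factors induce, had 1288 RPM in P17 OIR and 1319 RPM in P14 OIR, against 843 RPM in P17 CTL and 643 RPM in P14 CTL. Its ratio was 0.977 (0.951 to 1.00) in OIR and 1.31 (1.27 to 1.35) in CTL, and OIR stood above CTL at both ages. miR-190b-5p had 2161 RPM in P17 OIR and 1914 RPM in P14 OIR, against 6936 RPM in P17 CTL and 5240 RPM in P14 CTL, so OIR was 0.312-fold of CTL at P17 and 0.365-fold at P14. Its seed partner miR-190a-5p showed no such gap, at 2071 RPM in P17 OIR and 2158 RPM in P17 CTL.

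Of the 5 forms of the photoreceptor cluster, 1 was past the limit in OIR, where it was higher, and none in CTL. Over the 363 miRNAs, 32% were higher in OIR and 19.3% in CTL. The cluster's median log2 ratios were -0.21 in OIR and -0.02 in CTL. Without the 5 most abundant miRNAs in the total, none was higher and 3 were lower in OIR (median -0.42). miR-182 was the most abundant miRNA, at 234300 RPM in P17 OIR and 273795 RPM in P14 OIR, against 205163 RPM in P17 CTL and 207468 RPM in P14 CTL, with ratios of 0.856 in OIR and 0.989 in CTL. The form past it was miR-96-5p, with ratios of 1.23 in OIR and 1.02 in CTL. Since miR-182 alone took 23.4% of miRNA UMIs in P17 OIR and 27.4% in P14 OIR, against 20.5% in P17 CTL and 20.7% in P14 CTL, the shares of all other miRNAs are tied to it.

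Markers of blood cells also differed within OIR. The erythroid miR-144-3p had 12.4 RPM in P17 OIR and 27.0 RPM in P14 OIR, against 6.66 RPM in P17 CTL and 6.64 RPM in P14 CTL. The 3 erythroid miRNAs of at least 10 RPM, of 4 on the list, were all lower in OIR at P17 (background 19.3% of 363). In CTL 1 was lower (background 11%). With TMM scaling, 2 of these 3 were lower in OIR. These 3 summed to 51.7 RPM in P17 OIR and 88.5 RPM in P14 OIR, against 44.7 RPM in P17 CTL and 51.1 RPM in P14 CTL. The other member, miR-451-5p, had 4.08 RPM in P17 OIR and 14.4 RPM in P14 OIR, against 4.79 RPM in P17 CTL and 4.59 RPM in P14 CTL. None of the 4 was at 0. They include both strands of miR-144, so they are not independent.

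Of the 6 leukocyte miRNAs, 4 were higher and 1 lower in OIR and none past the limit in CTL. Over the 363 miRNAs, 32% were higher and 19.3% lower in OIR, and 19.3% higher and 11% lower in CTL. The count of 1 lower in OIR lies near its share. Under the scaling without the 5 most abundant miRNAs, 2 leukocyte miRNAs were higher and 2 lower in OIR. miR-150-5p, a lymphocyte miRNA, had 62.6 RPM in P17 OIR and 31.5 RPM in P14 OIR, against 75.3 RPM in P17 CTL and 74.3 RPM in P14 CTL. miR-146a-5p, a feedback inhibitor of inflammatory signalling, had 485 RPM in P17 OIR and 348 RPM in P14 OIR, against 271 RPM in P17 CTL and 291 RPM in P14 CTL. The 2 strands of miR-142, which is found across blood cell lineages, were not among those higher. miR-142-3p had 681 RPM in P17 OIR and 738 RPM in P14 OIR, against 400 RPM in P17 CTL and 390 RPM in P14 CTL, with a ratio of 0.923 in OIR. miR-142-5p was the member lower in OIR (ratio 0.810), with 142 RPM in P17 OIR and 175 RPM in P14 OIR, against 69.9 RPM in P17 CTL and 58.3 RPM in P14 CTL. The 6 summed to 1475 RPM in P17 OIR and 1368 RPM in P14 OIR, against 880 RPM in P17 CTL and 873 RPM in P14 CTL. Whether vessel wall or blood cells in the dissected tissue account for these differences was not tested.

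**Figure D5:**
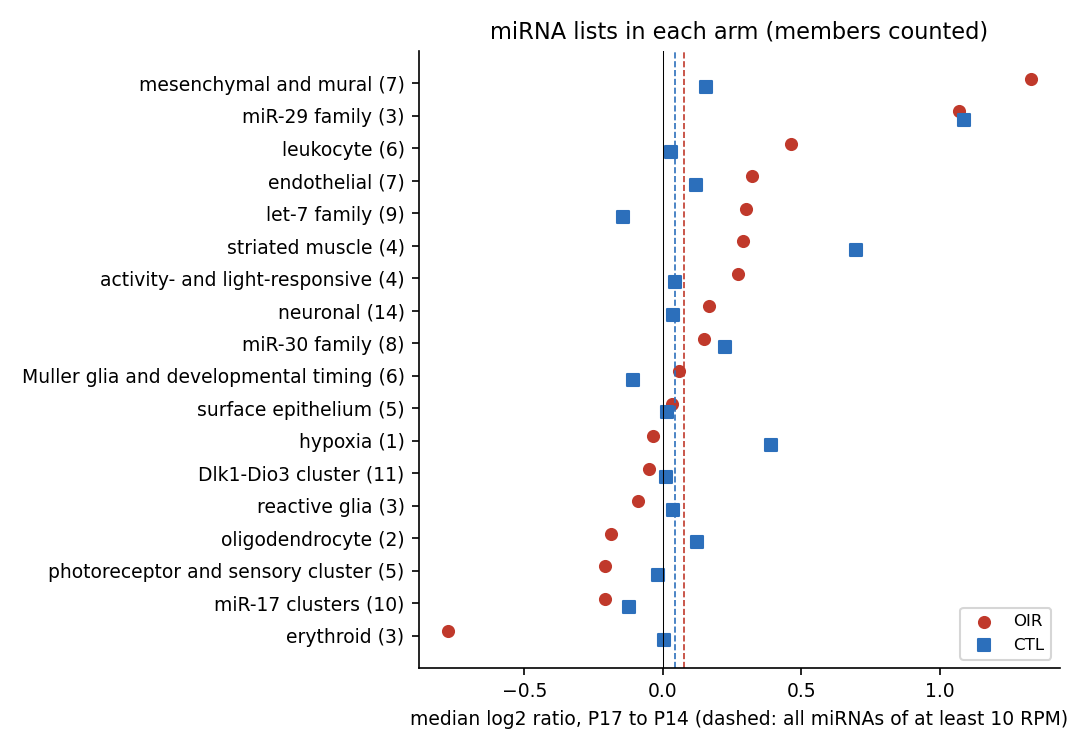
Median log2 ratio of P17 to P14 (horizontal axis) for 18 miRNA lists in OIR (circles) and CTL (squares), with the number of members of at least 10 RPM in brackets and dashed lines at the medians of all 363 such miRNAs (0.08 in OIR and 0.04 in CTL). The miR-29 family is near 1.1 in both arms, and the mesenchymal and mural list is at 1.33 in OIR and 0.15 in CTL.

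The background for each list that follows is the 363 miRNAs of at least 10 RPM. Of these, 32% were higher and 19.3% lower in OIR, and 19.3% higher and 11% lower in CTL. Of 14 neuronal miRNAs, 4 were higher and 2 lower in OIR and 2 higher and 1 lower in CTL, which lies near these shares. The neuronal medians were 0.17 in OIR and 0.04 in CTL. The OIR median was -0.04 without the 5 most abundant miRNAs in the total. Among 8 miR-30 forms, 3 were higher in OIR and 2 in CTL, with medians of 0.15 and 0.23. Without the 5 most abundant miRNAs in the total, 1 was higher in OIR and the OIR median was -0.06. The activity-induced miR-132-3p was lower in both arms, with 44.6 RPM in P17 OIR and 80.8 RPM in P14 OIR, against 43.8 RPM in P17 CTL and 53.9 RPM in P14 CTL. The myelinating-glia miRNA miR-219a-5p was also lower in both, at 104 RPM in P17 OIR and 161 RPM in P14 OIR, against 115 RPM in P17 CTL and 146 RPM in P14 CTL, while miR-338-3p of the same cells had 1034 RPM in P17 OIR and 863 RPM in P14 OIR, against 1085 RPM in P17 CTL and 722 RPM in P14 CTL. The 4 activity- and light-responsive miRNAs of at least 10 RPM, miR-132-3p among them, were 2 higher and 1 lower in OIR and 1 higher and 1 lower in CTL. The 6 of Muller glia and developmental timing were 3 higher and 2 lower in OIR and none higher and 1 lower in CTL, and those lower in OIR were miR-99a-5p (ratio 0.744) and miR-100-5p (ratio 0.717). Without the 5 most abundant miRNAs in the total, none of the 6 was higher and 3 were lower in OIR, and the OIR median was -0.15, against 0.06 with the full total. Of 11 members of the imprinted Dlk1-Dio3 cluster, 2 were higher and 2 lower in OIR and 1 higher and 1 lower in CTL, and 1 was higher and 4 lower in OIR without the 5 most abundant miRNAs in the total. Striated muscle miRNAs were 2 higher and 1 lower of 4 in OIR and 3 higher and 1 lower in CTL. Their medians were 0.29 in OIR and 0.70 in CTL, against 0.08 and 0.04 over the 363. They summed to 484 RPM in P17 OIR and 385 RPM in P14 OIR, against 424 RPM in P17 CTL and 278 RPM in P14 CTL. The tissue they came from was not tested.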

How the data were processed

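Small RNA was sequenced from the retina of OIR and CTL rats at P7, P14 and P17, with 1 pooled library per group. QIAseq miRNA is the kit in the labels, whereas the study's methods give TruSeq Small RNA. Per the labels, the authors used bcl2fastq 2.20, cutadapt and Bowtie with the rat build Rnor_6.0, and other versions and parameters are not given in the sources used here. The deposited values are counts, reads and UMIs per miRNA, not normalized, and list only miRNAs with at least 10 UMIs. Counts of reads per RNA class were read from the deposited summaries. Depth and precision are given with the results.

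UMIs were divided by the miRNA UMIs of the library. A miRNA not listed was set to 10 UMIs as a bound in ratios. Intervals were exact conditional (Clopper-Pearson) 95% intervals. The interval of a ratio of ratios was normal on the log scale. The limits of 1.2-fold and 1000 RPM follow the study, and lists used members of at least 10 RPM. The age difference across arms was tested with edgeR 4.0.16 (TMM, quasi-likelihood test, arm as block, at least 10 UMIs in 2 libraries) in R 4.3.3, with Benjamini-Hochberg adjustment, after tests on simulated data. Alternatives were DESeq2 1.42.0, reads, TMM, total reads, a total without the 5 most abundant miRNAs, other limits, all 6 retina libraries and leaving out each library. Leaving out other cell types' lists, and the total without the 5 most abundant miRNAs for list medians, were added after seeing the data.

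Named were the 10 highest and 10 lowest ratios per arm and between arms, the 10 most abundant, any edgeR call and members of 18 lists. miR-148b-3p, miR-3587, miR-3556a, miR-3556b, miR-3570, miR-3574, miR-126b, miR-29b-5p and miR-29c-5p fall outside that rule and were named after their values were seen. The same holds for miR-3596a to miR-3596d, miR-6328, miR-106b-3p and miR-488-3p. The members and lists were chosen with earlier results of these data known. The authors' choroid files, and files of other RNA classes, were not used here. Ratios and intervals were computed with scipy 1.17.1 and pandas 2.3.3 in Python 3.11.15.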

Additional observations from a re-analysis of the deposited data

Results flagged for a closer look

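Among the 363 miRNAs of at least 10 RPM, 3 passed the 1.2-fold limit in opposite directions in the arms, a difference that was not tested. The P17 to P14 ratio of miR-184 was 2.44 in OIR and 0.768 in CTL. For miR-106b-3p it was 1.73 in OIR and 0.749 in CTL, from 36.9 RPM in P17 OIR and 21.3 RPM in P14 OIR, against 48.5 RPM in P17 CTL and 64.8 RPM in P14 CTL. For miR-488-3p it was 1.55 in OIR and 0.788 in CTL, from 47.6 RPM in P17 OIR and 30.7 RPM in P14 OIR, against 77.6 RPM in P17 CTL and 98.5 RPM in P14 CTL. In all 3 the P14 OIR library was the lowest of the 4.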

How the results depend on the processing

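No paired analysis was possible because the labels give no replicate numbers, and the arm was the block in the test across arms. Without that block edgeR called 0, with 21 higher and 8 lower at an unadjusted p of 0.05. It called 0 also without the low-count filter, with all 6 retina libraries and when leaving out each library in turn, while DESeq2 called 14 and edgeR on reads 4. No past-limit ratio of a named miRNA changed direction under the 4 scalings, although 156 of 246 ratios left their counting interval with TMM, 52 with total reads, 16 with reads and 188 without the 5 most abundant miRNAs. Except with reads, the unchanged direction was fixed in advance. Those scalings move every log2 ratio of an arm by 1 amount, the largest being -0.21 in OIR and -0.08 in CTL. Such shifts are smaller than the 1.2-fold limit. In the order past the limit in OIR, in CTL, in both in 1 direction and in OIR and not CTL, the counts were 37, 18, 10 and 19. They were 12, 3, 3 and 4 at 1.5-fold and 4, 2, 2 and 2 at 2-fold. At a mean of at least 100 RPM they were 101, 52, 30 and 53 of 186, and at 10 RPM 186, 110, 62 and 90 of 363. Without the 5 most abundant miRNAs in the total, CTL had 28 and both arms 17, of which 7 were among the 10, and of 25 in OIR and not CTL 11 were among the 19. These last counts use 100 miRNAs. With a lower limit of 0.8, OIR and not CTL had 14 higher and 2 lower. Of the 19, miR-143-3p and miR-152-3p, and of the 10 none, are on the mesenchymal, leukocyte, erythroid, epithelium or muscle lists, and leaving those lists out alters no other ratio. Each ratio rests on 1 pool per group, so differences between animals are not covered.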

Other observations

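miR-6328, which averaged under 1000 RPM, differed more between the arms than between the ages. It had 4.93 RPM in P17 OIR and 11.7 RPM in P14 OIR, against 173 RPM in P17 CTL and 548 RPM in P14 CTL, and at P7 60.2 RPM in OIR and 366 RPM in CTL. It was lower at P17 in both arms (edgeR log2 -1.50, adjusted p 0.12).

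Further annotated miRNAs lie on the opposite strand of an abundant one. miR-3574, opposite miR-210-3p, had ratios of 1.02 in OIR and 1.12 in CTL, and miR-3570, opposite miR-181a-1-3p, 0.711 and 0.814 in OIR and CTL. miR-3596a, opposite let-7a-5p, had 1.22 in OIR and 0.989 in CTL. miR-126b, opposite miR-126a-5p, had at most 26 UMIs in any of the 4 libraries. The 84 pairs of strands from 1 hairpin had the same sign of log2 ratio in 57 pairs in OIR and in 55 in CTL.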
